A study of Homo sapiens with 4 samples.

Results

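The genes described here encode 10 regulators of apoptosis: the death ligand gene TNFSF10, the death receptor genes TNFRSF10A, TNFRSF10B and FAS, the initiator caspase gene CASP8, the BH3-only genes PMAIP1, BBC3 and BCL2L11, the anti-apoptotic gene MCL1, and XAF1. They were taken by name, through the platform annotation, and all 10 were found among the 18639 genes of the array, with 14 of the 21707 named probes. All 14 probes were above the detection limit on all 4 arrays. The arrays measured RNA of HEK293, an immortalized line from human embryonic kidney that carries the adenovirus E1 genes, whose products include inhibitors of apoptosis. The 4 groups were LGP2-4KR transgenic cells harvested 12 h after short poly I:C (a double-stranded RNA analogue) was transfected at 100 ng/ml, the same line unstimulated (0 h), LGP2 transgenic cells 12 h after the same transfection, and LGP2 transgenic cells unstimulated. LGP2, encoded by DHX58, belongs with RIG-I and MDA5 to the cytoplasmic RNA sensors, and the labels do not define 4KR. Each group was 1 array, so no difference between groups has a replicate check, and it is the number of arrays that limits precision.

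All cells carried a transgene, and there was no array of non-transgenic cells, of mock-transfected cells or of cells kept 12 h without treatment. Poly I:C, the transfection and the time in culture cannot be told apart. The labels do not say whether either line is a single clone. Fewer responding cells and less RNA per cell cannot be told apart in such bulk samples. Of the genes set as HEK293 markers, 6 of 6 named on the array (KRT18, VIM, NEFL, NEFM, PAX2 and CDH2) were detected on every array. PTPRC (immune cells), PECAM1 (endothelium), COL1A2 and PDGFRA (fibroblasts) and ALB (liver) were detected on 0 arrays. COL1A1 was detected on 1 array and CDH5 and NKG7 on 3, and KRT5, KRT14, CD14, CD3E, VWF, DCN and APOA1 on all 4. The HEK293 marker PAX2 had deposited intensities of 8.4 to 9.65, against 152.8 to 208 for the keratinocyte marker KRT14.

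Apoptosis can be started from outside the cell, when ligands such as TRAIL or FAS ligand bind death receptors that recruit and activate caspase-8, or from the mitochondria, when BH3-only proteins neutralize anti-apoptotic BCL2 proteins or activate BAX and BAK. Double-stranded RNA sensing through RIG-I-like receptors is known to feed into both routes, and TNFSF10, XAF1 and PMAIP1 are described as interferon- or virus-inducible in many human cells. NOXA, the product of PMAIP1, binds MCL1 and favours its degradation.

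RefSeq promoter windows of GRCh38.p14, from 250 bases before to 50 bases after an annotated start, were found for 7 of the 10 genes (12 windows). Those of 3 genes are shown because the responses divide them: PMAIP1, the gene that changed, and TNFSF10 and BBC3, whose windows hold the interferon-stimulated response element core but whose ratios, averaged over probes, stayed below 1.5-fold; the BBC3 transcript probe alone was past it in 4KR cells. All are written on the strand of the gene, with matches to the searched motifs in capitals. The PMAIP1 window is chr18:59899746-59900045 (plus strand), that of TNFSF10 is chr3:172523381-172523680 (minus strand) and that of BBC3 is chr19:47232618-47232917 (minus strand).
PMAIP1: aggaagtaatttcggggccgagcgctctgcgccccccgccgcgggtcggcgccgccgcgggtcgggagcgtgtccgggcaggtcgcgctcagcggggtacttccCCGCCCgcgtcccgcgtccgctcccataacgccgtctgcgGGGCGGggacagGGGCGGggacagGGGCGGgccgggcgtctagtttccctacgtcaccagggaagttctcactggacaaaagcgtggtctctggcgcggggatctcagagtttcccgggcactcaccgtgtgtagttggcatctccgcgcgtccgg
TNFSF10: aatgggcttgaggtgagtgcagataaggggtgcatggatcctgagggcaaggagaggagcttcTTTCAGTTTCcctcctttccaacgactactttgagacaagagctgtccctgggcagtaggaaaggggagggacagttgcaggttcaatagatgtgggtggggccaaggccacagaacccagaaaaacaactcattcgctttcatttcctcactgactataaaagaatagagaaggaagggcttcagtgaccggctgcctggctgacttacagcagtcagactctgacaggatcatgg
BBC3: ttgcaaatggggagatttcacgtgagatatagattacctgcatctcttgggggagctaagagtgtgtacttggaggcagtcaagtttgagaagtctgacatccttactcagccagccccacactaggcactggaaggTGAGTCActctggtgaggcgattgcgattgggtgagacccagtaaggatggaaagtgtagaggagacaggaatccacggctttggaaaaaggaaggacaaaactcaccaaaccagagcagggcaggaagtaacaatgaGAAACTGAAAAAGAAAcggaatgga
The motifs, searched on both strands, were the ISRE core (GAAA and GAAA with any 2 bases between), NF-kB (GGGA and TTCC with any 2 bases between), CRE (TGACGTCA), ATF4-type (TGATGNAA), AP-1 (TGANTCA) and GC box (GGGCGG). PMAIP1 held 4 GC boxes, between -146 and -77 from the start, and no match to the other motifs. TNFSF10 held 1 ISRE core at -187 to -178. BBC3 held 2 overlapping ISRE cores, at 26 to 35 and 32 to 41 downstream of the start, and 1 AP-1 match at -113 to -107. One of the CASP8 windows also held an ISRE core, across the start. The windows of XAF1, FAS and BCL2L11 held no ISRE core as searched, and these genes too stayed below 1.5-fold. Other spacings were not searched, and a XAF1 window holds GAAA and GAAA with 1 base between. Among 35116 windows of the same length, 3.57% held the ISRE core, 1.61% NF-kB, 1.85% CRE, 3.62% the ATF4-type motif, 7.71% AP-1 and 45% the GC box. A match is a description of letters and not of binding.

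The first question was which of these genes differed, within each line, at 12 h from the unstimulated state. Of the 10, PMAIP1 was more than 2-fold higher in both lines, and the other 9, averaged over their probes, were below 1.5-fold in either direction. Ratios are log2 values of 12 h over 0 h after background correction with an offset of 50 and quantile normalization, while intensities come from the authors' deposited table, scaled to a median of 25 per array. At least 2-fold higher were 1 of 10 genes in 4KR cells and 1 of 10 in LGP2 cells, against 0.406% and 0.43% of all genes tested in the same lines. At 1.5-fold the member counts were again 1 and 1, against 1.57% and 1.85% of all genes, and 0 of 10 were lower at either threshold, against 0.00597% of all genes in 4KR cells and 0.0118% in LGP2 cells at 2-fold and 0.418% and 0.501% at 1.5-fold. The plot of intensities by array shows all 14 probes.

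**Figure D1:**
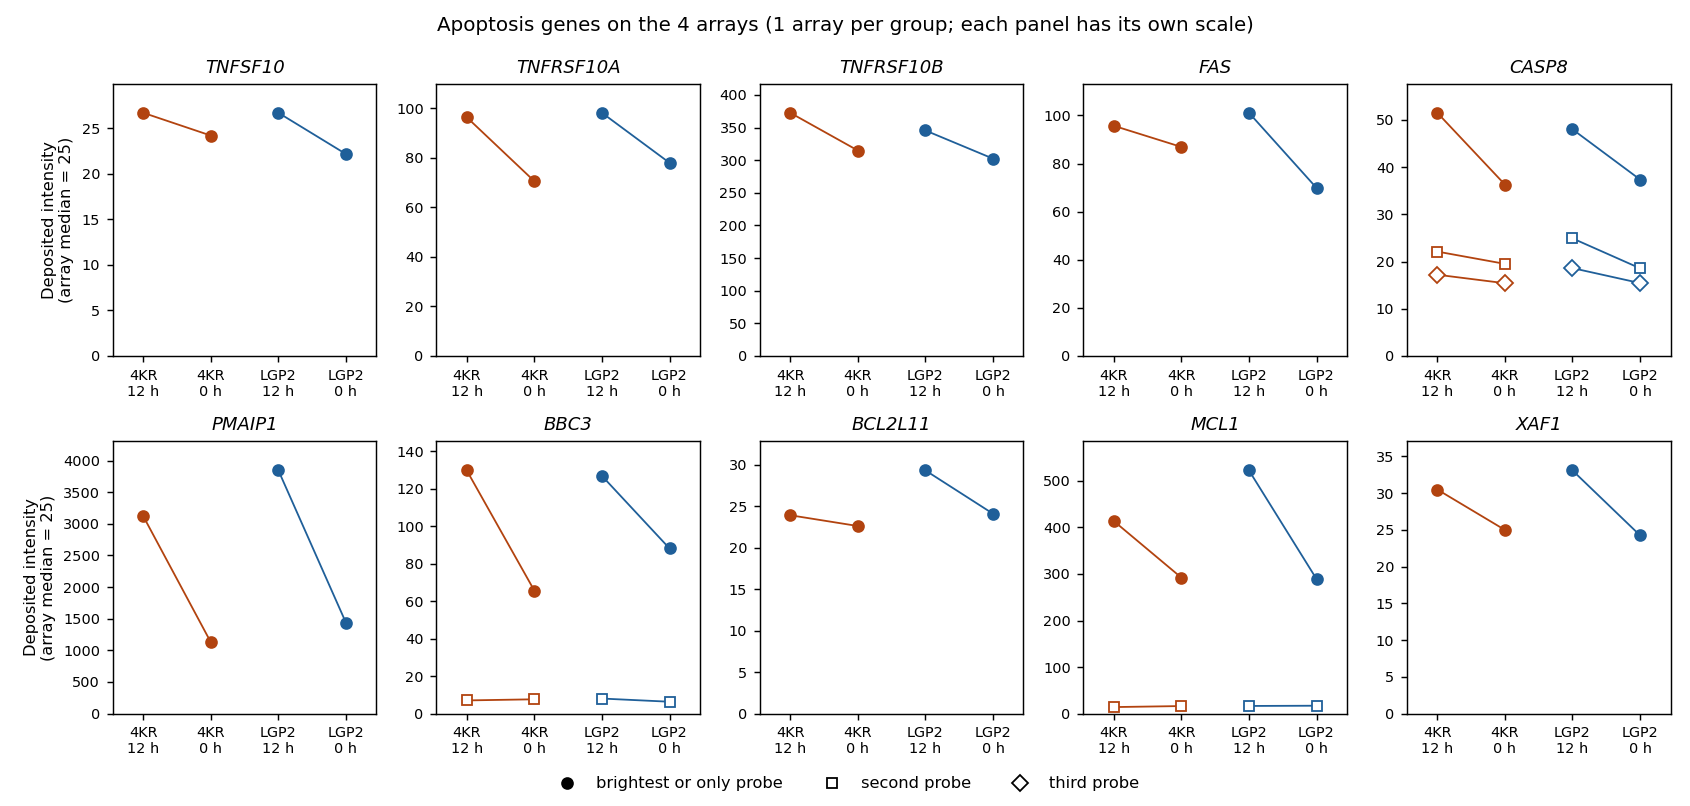
Deposited intensity (linear scale, array median 25) of each probe of the 10 genes, with 1 point per array, 12 h left of 0 h within each line and 4KR (orange) left of LGP2 (blue). PMAIP1 stood at 3122 and 3844 at 12 h, against 1128 and 1435 at 0 h in the same lines, while probes of one gene could differ, as for MCL1 and BBC3.

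PMAIP1 encodes NOXA, a BH3-only protein that neutralizes MCL1. Its single probe had a deposited intensity of 3122 in 4KR cells at 12 h, against 1128 in unstimulated 4KR cells, and of 3844 in LGP2 cells at 12 h, against 1435 in unstimulated LGP2 cells. Both stimulated arrays were above both unstimulated ones. In deposited intensities averaged over probes, this held for every gene of the set except BCL2L11, so it does not set PMAIP1 apart. The share of all genes with such a separation was not counted. The log2 ratio of PMAIP1 was 1.70 in 4KR cells (3.24-fold) and 1.55 in LGP2 cells (2.93-fold). These ranked 30 and 35 among the 17085 genes detected on at least 1 array. The probe sits in array block 22, whose probes had a median ratio of 0.0044 in 4KR cells and 0.0057 in LGP2 cells, and with block medians removed the ratios were 1.69 and 1.55. Over the 8 processing settings that give a ratio they ran between 1.45 and 1.97 in 4KR cells and between 1.28 and 1.60 in LGP2 cells.

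The only test available was a limma fit over all 17085 genes with line and stimulation as terms, in which the lines stand in for replicates and 1 residual degree of freedom is left. In this fit PMAIP1 was higher at 12 h by 1.63 ± 0.05 on the log2 scale (SE, 4 arrays; limma adjusted p = 0.0132), in 2 of 2 lines. It was the only one of the 10 genes called, against 7.95% of all genes called higher and 7.3% called lower. With plain subtraction of the blank level in place of the offset the adjusted p of PMAIP1 was 0.0549 and 0 of the 10 were called. The fit assumes that the lines respond alike, so it says nothing of the difference between them.

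The other BH3-only genes had small ratios. BBC3 encodes PUMA, which binds all the main anti-apoptotic BCL2 proteins, and was measured by a pair of probes that disagreed. The probe annotated to a BBC3 transcript had intensities of 129.7 in 4KR cells at 12 h against 65.6 in unstimulated 4KR cells, and 126.8 in LGP2 cells at 12 h against 88.1 in unstimulated LGP2 cells, with log2 ratios of 0.64 and 0.21. Both stimulated arrays were again above the unstimulated ones, and the ratio in 4KR cells alone was past 1.5-fold. That probe lies in block 24, where the median ratio was 0.03 in 4KR cells and -0.09 in LGP2 cells, and with block medians removed its ratios were 0.61 and 0.30. The other probe, annotated to a genomic record and not a transcript, was dim, with intensities of 7 and 7.60 in 4KR cells at 12 h and 0 h and of 8 and 6.30 in LGP2 cells. Averaged over both probes, the gene had ratios of 0.28 and 0.10 (limma adjusted p = 0.129).

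BCL2L11 encodes BIM, a BH3-only activator of BAX and BAK. Its intensities were 23.9 in 4KR cells at 12 h against 22.6 in unstimulated 4KR cells, and 29.3 in LGP2 cells at 12 h against 24.1 in unstimulated LGP2 cells. The stimulated and unstimulated values overlapped. The log2 ratios were -0.05 in 4KR cells and 0.02 in LGP2 cells (limma adjusted p = 0.82).

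MCL1, the anti-apoptotic partner of NOXA and BIM, was likewise measured by a pair of unequal probes. The transcript probe had intensities of 413.8 in 4KR cells at 12 h against 292.1 in unstimulated 4KR cells, and 522.6 in LGP2 cells at 12 h against 289.1 in unstimulated LGP2 cells, with log2 ratios of 0.43 and 0.68. Both stimulated arrays were above both unstimulated ones, and in LGP2 cells the ratio was past 1.5-fold. The probe annotated to a genomic record had intensities of 13.9 and 16.1 in 4KR cells at 12 h and 0 h and of 16.3 and 16.8 in LGP2 cells, with ratios of -0.15 and -0.12. Averaged, the gene had ratios of 0.14 and 0.28 (limma adjusted p = 0.0837), so its value depends on whether the genomic-record probe is counted.

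TNFSF10 encodes TRAIL, a secreted and membrane-bound death ligand. Its intensities were 26.7 in 4KR cells at 12 h against 24.2 in unstimulated 4KR cells, and 26.7 in LGP2 cells at 12 h against 22.2 in unstimulated LGP2 cells. All 4 values lay close to the array median of 25. The normalized log2 ratios were -0.01 in 4KR cells and 0.01 in LGP2 cells (limma adjusted p = 0.982). The probe is annotated to a non-coding transcript of the locus, and whether it also reads the coding transcript is not known here. The same holds for the probes of TNFRSF10B and FAS and for 2 of the 3 of CASP8, whose annotated records are non-coding. It also holds for the only probes of CASP6, BIRC5, MLKL and BCL2L1, genes described further below.

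TNFRSF10A and TNFRSF10B encode the TRAIL receptors DR4 and DR5. TNFRSF10A had intensities of 96.3 in 4KR cells at 12 h against 70.5 in unstimulated 4KR cells, and 98.1 in LGP2 cells at 12 h against 77.9 in unstimulated LGP2 cells, with log2 ratios of 0.22 and 0.05 (limma adjusted p = 0.205). TNFRSF10B had intensities of 372.6 in 4KR cells at 12 h against 314.8 in unstimulated 4KR cells, and 345.5 in LGP2 cells at 12 h against 302.3 in unstimulated LGP2 cells, with ratios of 0.19 and 0.05 (limma adjusted p = 0.223). For both receptors the stimulated arrays lay above the unstimulated ones in the deposited table. The median log2 ratio of all genes in that table was 0.15 in 4KR cells and 0.25 in LGP2 cells. There TNFRSF10A was at 0.45 and 0.33, and TNFRSF10B at 0.24 and 0.19, so TNFRSF10B was below the median gene in LGP2 cells.

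FAS, the receptor of FAS ligand, had intensities of 95.7 in 4KR cells at 12 h against 86.9 in unstimulated 4KR cells, and 101.1 in LGP2 cells at 12 h against 69.8 in unstimulated LGP2 cells. The lowest value was that of unstimulated LGP2 cells. The log2 ratios were -0.02 in 4KR cells and 0.20 in LGP2 cells (limma adjusted p = 0.458). CASP8, the caspase that death receptors activate, had 3 probes. Their ratios ran from -0.01 to 0.20 in 4KR cells and from 0.0009 to 0.07 in LGP2 cells, and the gene means were 0.06 and 0.04 (limma adjusted p = 0.357).

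XAF1 encodes a protein that antagonizes the caspase inhibitor XIAP and is widely listed among interferon-stimulated genes. Its intensities were 30.5 in 4KR cells at 12 h against 25 in unstimulated 4KR cells, and 33.1 in LGP2 cells at 12 h against 24.3 in unstimulated LGP2 cells. The log2 ratios were 0.06 in 4KR cells and 0.10 in LGP2 cells (limma adjusted p = 0.213). In the same arrays IFIT1, an interferon-induced RNA-binding protein, had ratios of 7.08 and 6.58.

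In the deposited table all 10 genes, averaged over their probes, were higher at 12 h in both lines, and so were 60.6% of the 15970 genes with a value on every array. After quantile normalization 7 of 10 had a ratio above 0 in both lines, against 32.6% of all genes tested, and 0 of 10 were below 0 in both, against 41%. The members' median log2 ratio was 0.10 in 4KR cells and 0.08 in LGP2 cells, and the median of all genes was -0.0090 in each line. The ratios of 9 of 10 genes in each line lay within the middle 95% of all genes, which ran from -0.40 to 0.49 in 4KR cells and from -0.40 to 0.52 in LGP2 cells. Sizes and signs of the small ratios moved with the scaling, as the plots of responses and of settings show.

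**Figure D2:**
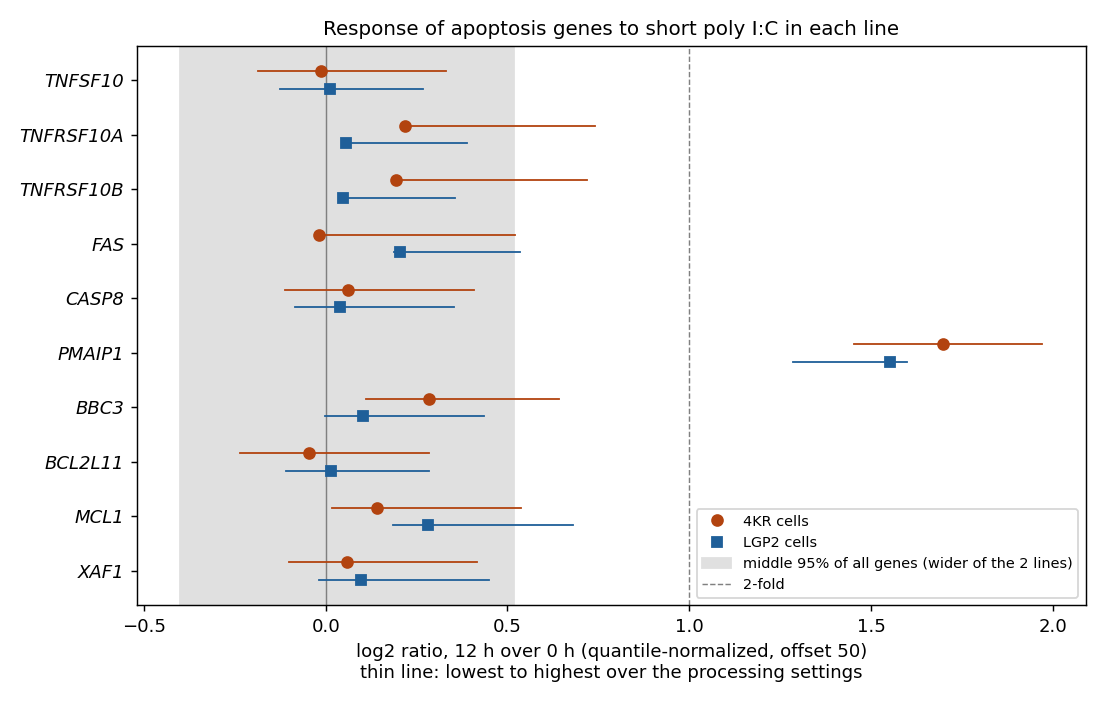
Log2 ratio of 12 h over 0 h for each gene in 4KR cells (orange circles) and LGP2 cells (blue squares), with thin lines from the lowest to the highest value over 8 processing settings and a grey band for the middle 95% of all genes. PMAIP1, at 1.70 and 1.55, is past the 2-fold line in every setting, and no other gene reaches that line in any.

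**Figure D3:**
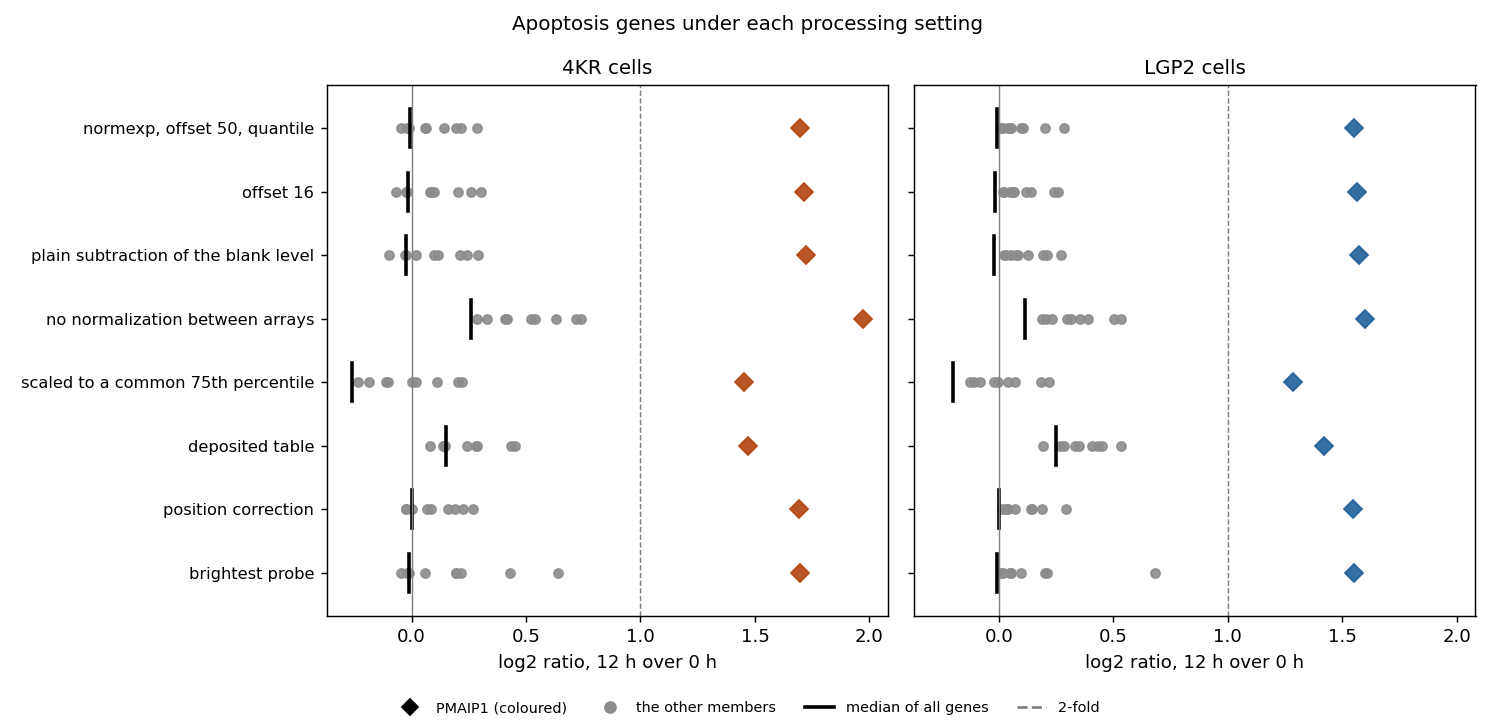
Log2 ratio of 12 h over 0 h for the 10 genes under each of 8 processing settings, in 4KR cells (left) and LGP2 cells (right), with PMAIP1 as coloured diamonds, the other genes as grey circles and the median of all genes as a black bar. Without normalization between arrays the bar moves to 0.26 in 4KR cells and 0.12 in LGP2 cells, and most small ratios move with it.

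The second question, posed by the use of both lines, was whether the responses differed between them. The difference, the 4KR response minus the LGP2 response, ran from -0.22 for FAS to 0.18 for BBC3, with a median of -0.0012 over the 10 genes and -0.0024 over all genes. At 2-fold 0 of 10 passed in either direction, against 0.0254% of genes higher and 0.0318% lower among the 15738 detected on every array. At 1.5-fold 0 of 10 passed as well, against 0.451% of genes higher and 0.426% lower. PMAIP1 differed by 0.14, and this ran from 0.05 in the deposited table to 0.37 without normalization between arrays. With transcript probes alone the differences were 0.43 for BBC3 and -0.25 for MCL1. The BBC3 probe lies in block 24, where the median difference was 0.15. After removal of block medians the differences of these probes were 0.28 and -0.24. With 1 array per group none of these differences could be tested.

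The lines were also compared at each time. In unstimulated cells PMAIP1 was at -0.27 for 4KR over LGP2 and FAS at 0.25, and the other genes lay between -0.13 and 0.09. At 12 h TNFRSF10B was at 0.24, and the other genes lay between -0.13 and 0.06. At 1.5-fold 0 of 10 passed at either time, against 0.13% of genes higher and 0.341% lower at 0 h and 0.0586% and 0.0352% at 12 h.

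The wider cell death machinery was read from 7 lists that also hold the 10 genes, with 61 of 67 genes named by the annotation and 53 detected on at least 1 array. PMAIP1 was the only one of the 53 at least 2-fold higher, in 4KR as in LGP2 cells, and 0 were 2-fold lower. The limma fit called 8 of the 53 higher and 5 lower, against 7.95% and 7.3% of all genes. The list medians lay between -0.27 and 0.16 in 4KR cells and between -0.22 and 0.10 in LGP2 cells.

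Among 13 detected death ligand and receptor genes, 2 were called higher and 0 lower, against 7.95% and 7.3% of all genes. TNFRSF12A, the receptor of the cytokine TWEAK, had intensities of 77.9 in 4KR cells at 12 h against 40.5 in unstimulated 4KR cells, and 72.0 in LGP2 cells at 12 h against 35.8 in unstimulated LGP2 cells, with ratios of 0.53 and 0.50 (limma adjusted p = 0.024). TNF was not above background in unstimulated cells of either line and had intensities of 4.40 in 4KR cells and 4.80 in LGP2 cells at 12 h. It was at least 1.08-fold higher in 4KR cells and at least 1.07-fold higher in LGP2 cells (limma adjusted p = 0.0358). TNFRSF25, another death receptor gene, had ratios of -0.12 and -0.34 (limma adjusted p = 0.124).

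Of 14 detected adaptor and caspase genes, 0 were called higher and 2 lower, against the same 7.95% and 7.3% of all genes. These were CASP6, an executioner caspase, at -0.27 and -0.22 (limma adjusted p = 0.0352) but above the median of all genes in 2 of 8 settings, and PIDD1, named here after its value was seen, at a fitted -0.24 (limma adjusted p = 0.044). TRADD, an adaptor of TNF receptors, was at -0.21 and -0.37, and APAF1, the scaffold of the apoptosome, at -0.33 and -0.18, with limma adjusted p of 0.057 and 0.0632. Of 7 detected BH3-only genes, PMAIP1 and HRK were called higher, against 7.95% of all genes, HRK at 0.24 and 0.19 (limma adjusted p = 0.042), while BID was at -0.15 and -0.20 and BIK at 0.16 and 0.15.

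Of the 3 genes of the BCL2 effectors, BAX and BOK were called lower, against 7.3% of all genes, and BAK1 was not called. BAX, whose product permeabilizes the outer mitochondrial membrane, had ratios of -0.27 in 4KR cells and -0.22 in LGP2 cells (limma adjusted p = 0.0357), with its single probe above 0 in 1 of 8 settings and below the median of all genes in 8 of 8. BOK had averaged ratios of -0.31 and -0.25 (limma adjusted p = 0.0319), but its probes disagreed. The probe annotated to a genomic record was at -0.66 in 4KR cells and -0.53 in LGP2 cells, and the transcript probe at 0.05 and 0.03, so the call rests on the first. BAK1, a related pore-forming protein, was at 0.10 and 0.16. Of 4 detected anti-apoptotic genes 0 were called, with BCL2L2 at -0.10 and -0.10, BCL2 at -0.07 and -0.09, and BCL2L1, which encodes BCL-XL, at -0.04 and -0.0091.

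Of 7 detected inhibitor-of-apoptosis genes and their antagonists, 2 were called higher, against 7.95% of all genes: BIRC2, which encodes the ubiquitin ligase cIAP1, at 0.30 and 0.23 (limma adjusted p = 0.0367), and BIRC5, which encodes survivin, at 0.21 and 0.30 (limma adjusted p = 0.0423). HTRA2, a mitochondrial protease, was at 0.03 and 0.07. Of 5 detected necroptosis and pyroptosis genes, 2 were called higher and 1 lower, against 7.95% and 7.3% of all genes. PYCARD, the inflammasome adaptor ASC, was higher at 0.35 and 0.29 (limma adjusted p = 0.0285) and MLKL, the necroptosis effector, at 0.19 and 0.19 (limma adjusted p = 0.0439), while GSDME, a gasdermin, was lower at -0.23 and -0.24 (limma adjusted p = 0.0343). PYCARD, MLKL, BIRC2 and BIRC5 lay above the median of all genes, and GSDME below it, in 8 of 8 settings.

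**Figure D4:**
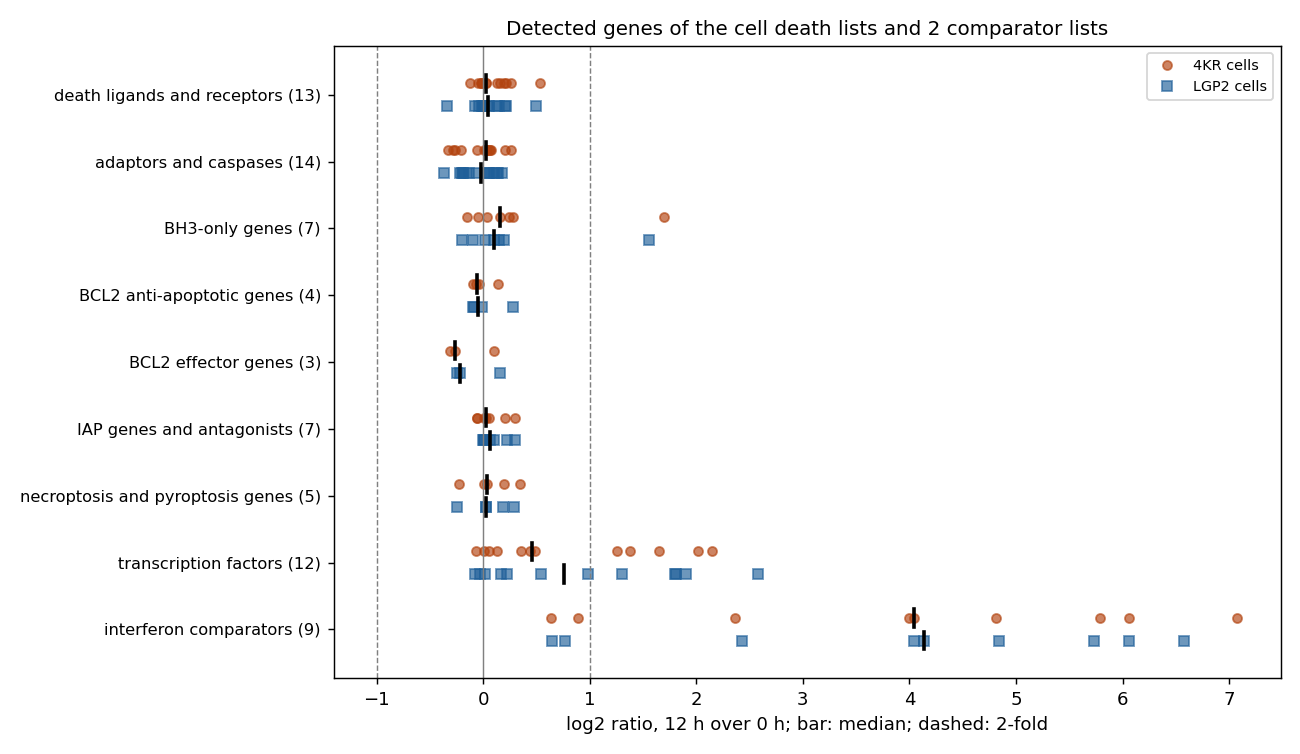
Log2 ratio of 12 h over 0 h for each detected gene of the 7 cell death lists and of 2 comparator lists, in 4KR cells (orange circles) and LGP2 cells (blue squares), with black bars at list medians and dashed lines at 2-fold. In the cell death lists PMAIP1 is the only point past 2-fold, and the medians of the interferon comparators lie at 4.04 and 4.14.

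For comparison, of 12 detected transcription factor genes known to act on apoptosis genes, 5 were at least 2-fold higher in 4KR cells and 5 in LGP2 cells, against 0.406% and 0.43% of all genes. ATF3, a stress-induced factor, had ratios of 2.15 in 4KR cells and 2.58 in LGP2 cells, IRF7 of 2.02 and 1.80, and IRF1 of 1.65 and 1.80. The others past 2-fold, named after their values were seen, were JUN at 1.38 and 1.90 and IRF9 at 1.26 and 1.30. Of 9 interferon comparators 7 were at least 2-fold higher in each line, against the same shares.

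By a rule of likeness, the root mean square distance over the 4 log2 levels after subtraction of each gene's mean, the genes most like PMAIP1 among the 15738 detected on every array were USP18 at 0.107, IFIT5 at 0.132, IRF1 at 0.138, PPP1R15A at 0.139 and PARP12 at 0.153. Their ratios were 1.76 in 4KR cells and 1.58 in LGP2 cells for USP18, 1.53 and 1.54 for IFIT5, 1.40 and 1.55 for PPP1R15A, and 1.45 and 1.35 for PARP12. Over 4 points this likeness rests almost wholly on the size of the response.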

How the data were processed

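Per the labels' protocols, amino allyl aRNA made from total RNA was coupled to Cy5 for 1-colour arrays. Per the file headers, each scanner table gives the median intensity of a spot in scanner units, not normalized. The authors' deposited series table holds one intensity per probe, scaled to a median of 25 on each array. No source used here says how it was made.

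The scanner's own background column tracked the spot signal (correlation of logarithms 0.990 to 0.997) and was not used. The mean of 384 blank spots took its place in normexp correction (offset 50), before quantile normalization of 24460 gene probes and log2 (limma 3.58.1, R 4.3.3). Detection meant a signal over the blank mean by more than 2 SD, which held for 83.2% to 89.2% of gene probes. Probes of a gene were averaged, and probes rejected by the scanner on an array were left out. Genes counted past a fold if detected on the brighter array, or on all 4 when responses were compared. A gene detected only at 12 h was given a lower bound against the dimmest detected probe of the unstimulated array. The additive limma fit used Benjamini-Hochberg adjustment over all genes tested, at 0.05. The ratios and the fit were tested on simulated data with known folds. The simulated arrays held no difference between lines and no array-wide shift, so that test does not cover the dependence on scaling.

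The members, lists and tests were chosen with earlier results of these data known. Named were the 10 members and the 3 other genes of each list with the largest absolute mean response, in either direction. The 5 genes most like the member with the largest response were named too. Of 91 list entries, 9 were not matched in the annotation and are not analysed here. The alternatives tried are given in the closing section.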

Additional observations from a re-analysis of the deposited data

Results flagged for a closer look

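For 3 genes the single array pair of one line moved in the opposite direction to that of the other line, and these differences were not tested. FAS had a log2 ratio of -0.02 in 4KR cells and 0.20 in LGP2 cells, a difference (4KR minus LGP2) of -0.22. BCL2L11 had ratios of -0.05 and 0.02, a difference of -0.062, and TNFSF10 of -0.01 and 0.01, a difference of -0.024. All lay within the middle 95% of the differences of all genes, which ran from -0.29 to 0.29. In the deposited table, and with no normalization, all 3 genes had ratios above 0 in both lines, but so did the median of all genes. In the deposited table that median was 0.15 in 4KR cells and 0.25 in LGP2 cells. All 3 genes lay below it in 4KR cells and above it in LGP2 cells. With no normalization it was 0.26 and 0.12, and all 3 lay above it in both lines.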

How the results depend on the processing

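Among the members, the response counts stayed at PMAIP1 alone in each line under each of the 10 alternatives. The members' count of differing responses stayed at 0. With the processing used for the ratios above, both hold for the 1.5-fold threshold as well. The other processing settings were counted at 2-fold only. Without normalization between arrays, TNFRSF10A (0.74), TNFRSF10B (0.72) and BBC3 (0.63) were also past 1.5-fold in 4KR cells. With the brightest probe of each gene in place of the average, BBC3 in 4KR cells (0.64) and MCL1 in LGP2 cells (0.68) were past it. Over the 210 values of single genes under alternatives, 189 kept their sign and their side of 2-fold. The other 21, 14 of them responses and 7 differences, changed sign below 2-fold, and 0 of the 21 were of PMAIP1. Of the 21, 9 came with scaling to a common 75th percentile, 7 with the arrays left unnormalized and 5 in the deposited table, where the median of all genes was -0.26, 0.26 and 0.15 in 4KR cells and -0.20, 0.12 and 0.25 in LGP2 cells. The cause was not tested.

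The additive fit was less stable. It called 0 of the 10 genes with plain subtraction of the blank level, 10 without normalization between arrays, and 3 (PMAIP1, BBC3 and MCL1) with the position correction. The adjusted p of PMAIP1 ran from 8.12e-63 without normalization to 0.0549 with plain subtraction. All genes called higher and lower numbered 1359 and 1247 here, 1971 and 1709 with the position correction, and 74 and 0 with plain subtraction. They numbered 6927 and 21 without normalization, 1639 and 10182 with 75th-percentile scaling, and 1965 and 41 in the deposited table. The direction of the fit for small changes thus depends on scaling.

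Genes 2-fold higher in 4KR cells numbered 68, against 448 with plain subtraction, 418 without normalization, 507 in the deposited table and 263 at 1.5-fold. In LGP2 cells they numbered 73, against 561, 177, 958 and 313 in the same order, and 119 with an offset of 16. Differing responses numbered 9, against 210, 21, 242, 138 and 26. The additive fit pairs 12 h with 0 h within each line. By replicate number, no paired analysis was possible because each group is 1 array and the labels number no replicates. Leaving out an array leaves no residual degree of freedom. The offset of 50 shrinks the ratios of dim genes, and the array signal gives no count-based precision.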
